A study of Mus musculus with 19 samples.

Results

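The 86 genes described here stand for the nuclear part of the mitochondrial respiratory chain, which is read from chromosomes in the nucleus. All but Atp5s and Atp5sl are counted here under complexes I to V or cytochrome c. The 86 were taken by name from the 52636 mouse genes of the count table (the Nduf, Sdh, Uqcr, Cox4 to Cox8, Cyc1, Cycs and Atp5 families). Among the 92 matching names 6 pseudogenes were left out. Atp5s and Atp5sl match by name and are counted under no complex. The cells were single neurons picked by hand into 19 plates of 96 wells from the lateral hypothalamic area of 7 male mice aged 6 to 8 weeks. All mice carried Agrp-IRES-Cre and the Ai9 reporter, which makes AGRP neurons fluorescent, and the picked cell bodies were non-fluorescent. There was no treated or mutant group, so the comparisons are between classes of cells within the same plates.

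Of 1612 wells labelled as lateral hypothalamic area, 1534 had at least 1000 detected features and were kept. Class was set by the cells' own transcripts. Pmch neurons (68 wells) had at least 1% of mouse counts on Pmch, the precursor of melanin-concentrating hormone. Hcrt neurons (1065 wells) had at least 1% on Hcrt, the precursor of the orexin peptides. The rest reached neither limit: 71 wells had fewer than 5 counts of Gad1 and Gad2 together and are called Gad-low cells here, and 327 wells had 5 or more and are called Gad neurons, since Gad1 and Gad2 make GABA. Another 3 wells passed both peptide limits and were left out. Levels are given as CPM, the counts scaled to a total of 1000000 mouse counts other than Hcrt and Pmch, because Pmch took a median of 17.7% of the counts of a Pmch neuron and Hcrt took 13.5% of those of a Hcrt neuron. Counts were summed per plate and class where a plate had at least 3 wells of the class, which left 13 plates with Pmch neurons, 19 with Hcrt neurons, 10 with Gad-low cells and 16 with Gad neurons.

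Complexes I and II pass electrons from NADH and succinate to ubiquinone, complex III passes them to cytochrome c, and complex IV (cytochrome c oxidase) passes them to oxygen. Complexes I, III and IV pump protons, and complex V (ATP synthase) uses the proton gradient to make ATP. Complex II is wholly nuclear-encoded, whereas the others mix nuclear subunits with a few that mitochondrial DNA encodes. Some subunits of complex IV exist as isoforms, one found in most tissues and another in heart, muscle, lung or testis.

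Pmch and Hcrt wells were deeper than Gad-low and Gad wells, which were close to each other. The median number of counts per well outside the peptides was 48668 in Pmch neurons, 39061 in Hcrt neurons, 24898 in Gad-low cells and 24446 in Gad neurons. The share of ERCC spike-in counts was 1.86%, 2.72%, 5.96% and 6.24% in the same order (medians). Pan-neuronal transcripts were found in 100% of Pmch wells, 99.9% of Hcrt wells, 97.2% of Gad-low wells and 100% of Gad wells. Gad-low cells were the least uniform class by a neuron gate. The gate asked for at least 5 of 8 pan-neuronal genes and for each non-neuronal marker list to sum to less than the pan-neuronal one. It also asked for at most 20% of mouse counts on mitochondrial genes. Of 71 Gad-low wells 10 (14.1%) failed it, against none of 68 Pmch wells, 31 of 1065 Hcrt wells and 5 of 327 Gad wells. The sum of 6 oligodendrocyte markers reached 9886 CPM in the highest plate of Gad-low cells, against 94.4, 1807 and 953.6 CPM in the highest plate of Pmch, Hcrt and Gad neurons. Wells that held only spike-ins or nothing had a median of 2 counts on respiratory chain genes and a highest value of 3630, against a median of 1149 in kept wells.

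The respiratory chain genes together took a smaller share of the counts in Hcrt neurons than in Gad neurons. The share per plate ran from 2.62% to 3.92% in Hcrt neurons (3.23% ± 0.34, SD, n = 19 plates) and from 2.80% to 4.93% in Gad neurons (3.81% ± 0.53, n = 16). The ranges overlapped, but within a plate the share was lower in Hcrt neurons in 16 of 16 plates, by 0.57 ± 0.24 percentage points. Complexes I, III and V were each lower in 16 of 16 plates, complex IV in 14 and complex II in 10. Only part of the difference is particular to these genes, since the median log2 fold change of all genes tested below was -0.17, beside -0.28 for the members. With TMM scaling the medians were 0.02 and -0.09. In Pmch neurons the share was 3.11% ± 0.51 (n = 13), lower than in Hcrt neurons in 9 of 13 plates, by 0.09 ± 0.17 points, which is within the spread. Gad-low cells stood between Hcrt and Gad neurons with 3.55% ± 0.59 (n = 10). From low to high the means ran Pmch, Hcrt, Gad-low and Gad. Neighbours in that order differed within plates by less than the SD of the plate differences, which was 0.54 points for Hcrt minus Gad-low (mean -0.24) and 0.64 points for Gad-low minus Gad (mean -0.35).

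**Figure D1:**
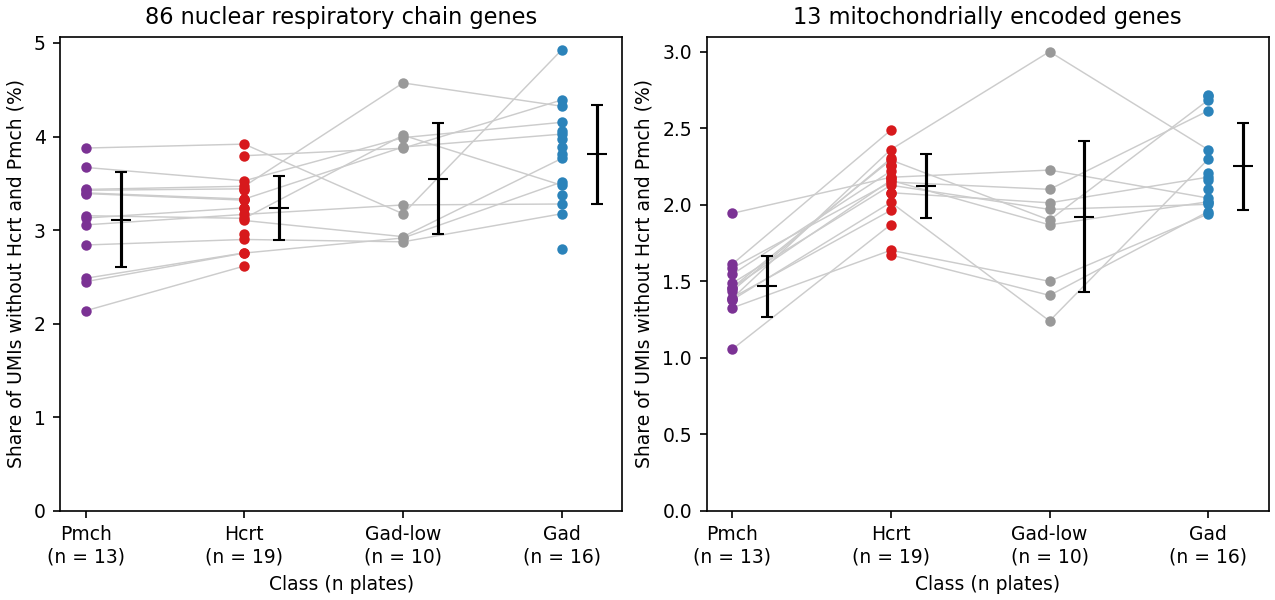
Share of counts without Hcrt and Pmch that fell on the 86 nuclear respiratory chain genes (left) and on the 13 protein-coding genes of mitochondrial DNA (right), with 1 point per plate and class, lines joining the classes of a plate, and black bars for mean ± SD over plates. On the left Hcrt neurons average 3.23% and Gad neurons 3.81%, and on the right Pmch neurons average 1.47% and Hcrt neurons 2.12%. The median of all genes tested was also lower in Hcrt neurons than in Gad neurons (log2 fold change -0.17).

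For single genes, 77 of the 86 members were abundant enough to be tested. Counts per plate and class were fitted in 1 edgeR quasi-likelihood model with plate as a block, and a gene is called at a Benjamini-Hochberg adjusted p under 0.05 over all 7815 genes tested. Which of the 7 mice gave the cells of which of the 19 plates is not stated in the labels, so plates may share an animal and the p-values then overstate the evidence. Hcrt neurons serve in 3 of the 4 comparisons and Gad neurons in 2, so the comparisons share wells. In all 4 comparisons the plate ranges of both classes overlapped for each of the 77 members, so that differences show within plates and not as separate ranges.

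In Hcrt neurons against Gad neurons, 37 of the 77 members were called lower and 3 higher. Among all genes tested 22.2% were called lower and 10.7% higher. The median log2 fold change of the members was -0.28, beside -0.17 for all genes tested. Because that background was itself below 0, the direction depends in part on the scaling. TMM scaling moved the median of all genes by 0.19 to 0.02, left the members' median at -0.09, and gave 13 members lower and 8 higher (all genes 14.1% and 16.9%). The 13 members that were lower under both scalings were Atp5sl, Uqcrb, Ndufa5, Cox5b, Atp5j2, Ndufb8, Atp5g1, Ndufb10, Atp5k, Atp5o, Ndufa6, Cox5a and Ndufa4, and the 3 that were higher under both were Cox6a1, Ndufa1 and Cox4i1. After wells were thinned to 10000 counts each, with shallower wells left out, 35 were lower and 2 higher (Cox6a1 and Atp5e). Under each of the 15 other settings tried and with each plate left out, 11 of the 37 lower calls held, those of the 13 named above other than Atp5sl and Atp5k, and of the 3 higher calls that of Cox6a1 alone held.

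**Figure D2:**
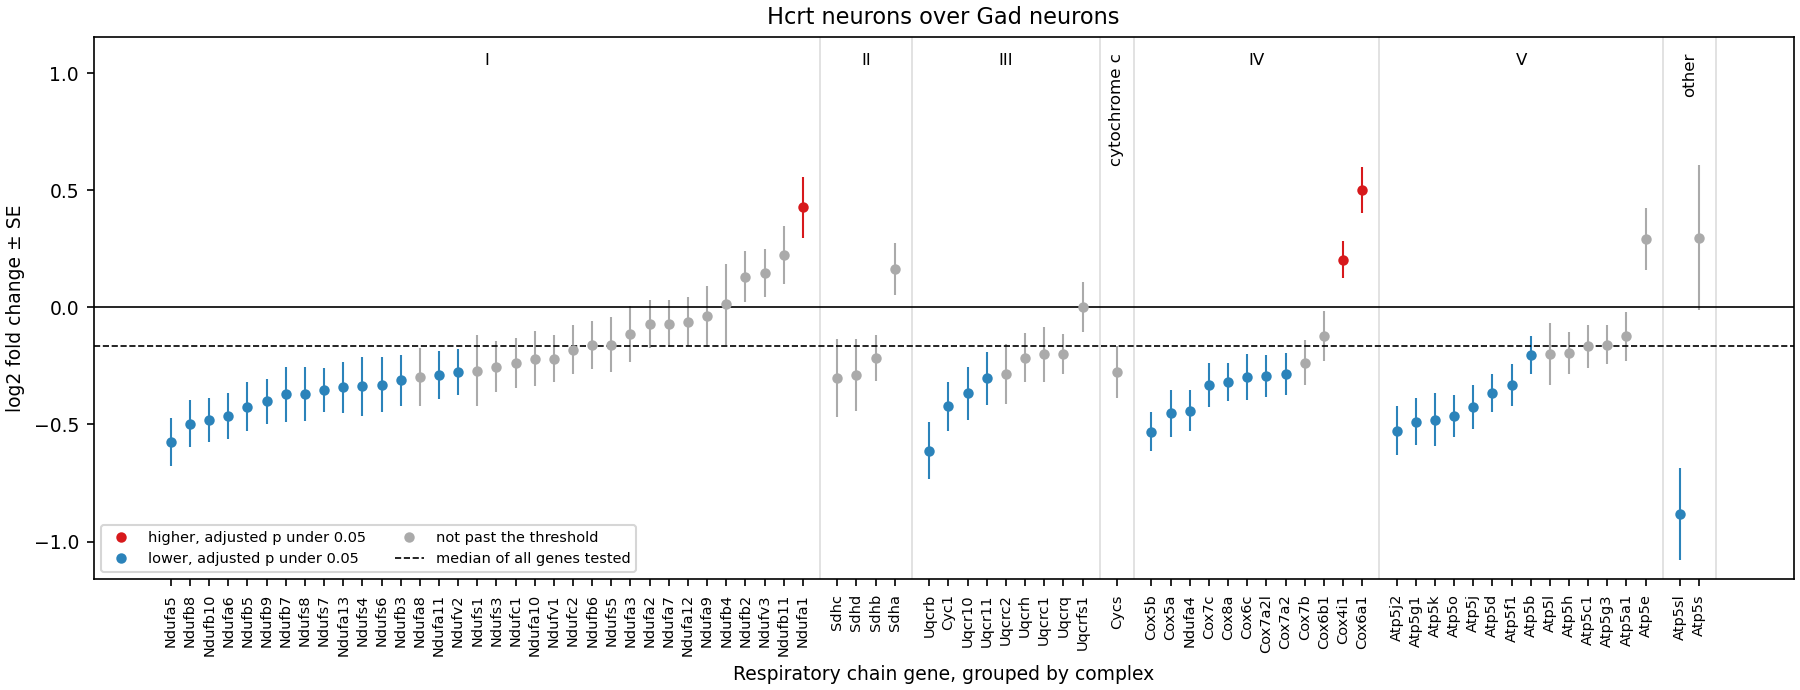
Log2 fold change ± SE of 76 of the 77 tested respiratory chain genes in Hcrt neurons over Gad neurons, grouped by complex and ordered by size within it. Blue points are lower and red points higher at an adjusted p under 0.05, and the dashed line is the median of all genes tested (-0.17). Most members lie below 0, and the 3 red points above it are Ndufa1, Cox4i1 and Cox6a1.

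Sequences upstream of the RefSeq transcription start are shown for a few members that moved in opposite directions, because the known activators of this gene set act near the start. Of the 86 members, 67 had 1 or more windows in the RefSeq promoter table (GRCm38.p6), each 300 bases long from 250 before the start to 50 after it. The core of the NRF1 (nuclear respiratory factor) motif, GCGCA and GCGC with any 1 base between them, was found on either strand in 18 of the 72 member windows and in 1512 (4.6%) of all 32851 windows. The other motifs were searched on both strands too. The YY1 letters AANATGGCG were found in 13.9% of member windows and 2.38% of all windows, and the ETS letters CCGGAAGT in 6.94% and 3.89%. The ERRA letters TCAAGGTCA were in 2.78% of member windows and 0.42% of all, and the CRE letters TGACGTCA in 6.94% and 1.79%. Of 16 tested members with the NRF1 letters 6 were lower and 1 higher in Hcrt neurons than in Gad neurons, and of 46 with a window but without them 24 were lower and 1 higher. Their median log2 fold changes were close, -0.245 with the letters and -0.276 without. These calls are without TMM scaling, where 22.2% of all genes were lower and 10.7% higher. Atp5k and Ndufs6 were picked from the lower members because the NRF1 letters lie in the 150 bases before their RefSeq start. That they hold the letters is therefore no result. The call of Ndufs6 ended with TMM scaling (-0.14, edgeR adjusted p = 0.409). Cox6a1, which was picked as a higher member, has the letters in those 150 bases too. Ndufa1 (higher), Cox5b (lower) and Ndufa4, which is described below, have none of the 5 sets of letters in their windows. Only these exact letters were searched, so a variant of a motif would be missed. By the GENCODE M21 gene coordinates used elsewhere here, the bases shown run into the gene for all but Ndufa1. The NRF1 letters of Ndufs6 then lie inside the gene, and those of Atp5k lie across its start. The 150 bases are shown. Capitals mark the NRF1 letters, read on either strand, and each line reads 5′ to 3′ on the gene's strand.
Cox6a1 (chr5:115348959-115349108, minus strand): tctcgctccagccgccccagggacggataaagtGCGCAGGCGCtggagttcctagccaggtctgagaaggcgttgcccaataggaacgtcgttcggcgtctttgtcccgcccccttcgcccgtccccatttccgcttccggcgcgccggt
Ndufa1 (chrX:37191239-37191388, minus strand): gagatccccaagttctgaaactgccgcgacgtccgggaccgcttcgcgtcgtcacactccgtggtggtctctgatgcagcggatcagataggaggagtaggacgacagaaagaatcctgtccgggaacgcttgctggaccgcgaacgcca
Atp5k (chr5:108434400-108434549, minus strand): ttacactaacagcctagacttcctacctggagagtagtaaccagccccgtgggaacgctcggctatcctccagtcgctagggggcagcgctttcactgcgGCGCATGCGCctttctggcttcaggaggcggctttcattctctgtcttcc
Ndufs6 (chr13:73328483-73328632, minus strand): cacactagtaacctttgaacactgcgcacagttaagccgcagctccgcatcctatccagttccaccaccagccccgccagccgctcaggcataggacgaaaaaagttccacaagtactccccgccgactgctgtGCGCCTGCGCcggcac
Cox5b (chr1:36691337-36691486, plus strand): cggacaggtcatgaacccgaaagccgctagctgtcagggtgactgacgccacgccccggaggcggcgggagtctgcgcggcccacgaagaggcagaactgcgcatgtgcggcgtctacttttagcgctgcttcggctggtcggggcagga
Ndufa4 (chr6:11907451-11907600, minus strand): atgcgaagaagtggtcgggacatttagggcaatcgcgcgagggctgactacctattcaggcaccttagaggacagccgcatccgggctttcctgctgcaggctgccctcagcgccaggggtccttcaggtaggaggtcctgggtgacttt

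Complex I, which takes electrons from NADH, had 16 of its 35 tested members lower in Hcrt neurons than in Gad neurons and 1 higher, and 4 lower and 4 higher with TMM scaling (all genes 22.2% lower and 10.7% higher, and 14.1% and 16.9% with TMM). Among the core subunits, which carry the flavin and iron-sulfur centres, Ndufs7 (log2 fold change -0.35 ± 0.10), Ndufs8 (-0.37 ± 0.12) and Ndufv2 (-0.28 ± 0.10) were lower. None of these calls held with TMM scaling. Ndufs1 and Ndufv1, the subunit that binds NADH, lay at log2 fold changes of -0.27 ± 0.15 and -0.22 ± 0.10 and did not pass the threshold. Ndufa5, an accessory subunit of the matrix arm (chr6:24518666-24528013, minus strand), had 148.3, 246.9 and 483.9 CPM in Hcrt neurons (lowest, median and highest plate), against 222.6, 358.4 and 782.3 CPM in Gad neurons. These ranges overlapped, but within plates Hcrt neurons were the lower class in 16 of 16, with a log2 fold change of -0.57 ± 0.10 (SE; edgeR adjusted p = 5.54e-06). Ndufb8 and Ndufb10, accessory subunits of the membrane arm, were lower in 16 of 16 plates too, with log2 fold changes of -0.50 ± 0.10 and -0.48 ± 0.09. Ndufb8 shares exon bases with the predicted gene Gm20538, and counting could split their reads. Ndufa6, another accessory subunit, averaged 354.9 ± 66.7 CPM in Hcrt neurons and 483.8 ± 112.9 CPM in Gad neurons.

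Ndufa1 went the other way. It encodes a small membrane-bound accessory subunit that is needed for assembly of complex I and lies on the X chromosome (chrX:37187588-37191163, minus strand). It had 102.7, 151.8 and 226.2 CPM in Hcrt neurons and 73.4, 128.4 and 176.2 CPM in Gad neurons. Hcrt neurons were higher in 13 of 16 plates, at a log2 fold change of 0.43 ± 0.13 (edgeR adjusted p = 0.00738). The call ended without the plate block (0.32, edgeR adjusted p = 0.057), after thinning (0.28, 0.148), with a peptide limit of 0.2% (0.22, 0.496) and without the filter on low counts (0.43, 0.135).

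Complex II had 0 of its 4 tested genes past the threshold by edgeR and 0 by DESeq2, and 1 at an unadjusted p under 0.05 (Sdhb, lower). Sdha, the flavoprotein that oxidises succinate, had 396.6, 520.1 and 602.6 CPM in Hcrt neurons and 269.3, 450.2 and 600.8 CPM in Gad neurons. It was higher in Hcrt neurons in 13 of 16 plates, but its log2 fold change of 0.16 ± 0.11 did not pass (edgeR adjusted p = 0.272), although it did under TMM scaling (0.35, edgeR adjusted p = 0.0121). Sdhb, the iron-sulfur subunit, had a log2 fold change of -0.21 ± 0.10.

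Complex III, which passes electrons from ubiquinone to cytochrome c, had 4 of 9 tested genes lower, and 1 with TMM scaling (all genes 22.2% lower, and 14.1% with TMM). Uqcrb, a small subunit at the ubiquinone site (chr13:66900617-66905378, minus strand), had 91.0, 150.6 and 220.9 CPM in Hcrt neurons and 98.4, 245.4 and 390.1 CPM in Gad neurons. Hcrt neurons were lower in 15 of 16 plates, with a log2 fold change of -0.61 ± 0.12 (edgeR adjusted p = 4.02e-05). A predicted gene, Gm10767, overlaps it on the other strand. Cyc1, the cytochrome c1 that hands electrons to cytochrome c, was lower as well (-0.42 ± 0.10), as were the small subunits Uqcr10 and Uqcr11. The core protein gene Uqcrc1 (-0.20 ± 0.12), the Rieske protein gene Uqcrfs1 (0.00 ± 0.11) and Cycs, cytochrome c itself (-0.28 ± 0.11, edgeR adjusted p = 0.0511), did not pass.

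Complex IV had 8 of 12 tested genes lower and 2 higher, counting Ndufa4 here, and 3 lower and 2 higher with TMM scaling. Among all genes 22.2% were lower and 10.7% higher, and 14.1% and 16.9% with TMM. Cox5b, a zinc-binding subunit on the matrix side (chr1:36691449-36693681, plus strand), had 379.4, 564.1 and 805.6 CPM in Hcrt neurons and 590.1, 785.1 and 1207 CPM in Gad neurons. It was lower in Hcrt neurons in 16 of 16 plates, with a log2 fold change of -0.53 ± 0.08 (edgeR adjusted p = 4.91e-07). Its neighbour in the complex, Cox5a, was also lower in 16 of 16 plates (-0.45 ± 0.10), and Cox7c, Cox8a, Cox6c, Cox7a2l and Cox7a2 were lower by smaller amounts, between -0.33 and -0.28. Ndufa4 was lower by -0.44 ± 0.09. Cox7a2l joins complex III to complex IV. Cox6b1 (-0.12 ± 0.11) and Cox7b (-0.24 ± 0.10, edgeR adjusted p = 0.0502) did not pass.

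The exceptions in complex IV were Cox6a1 and Cox4i1. Cox6a1, the isoform of subunit VIa found in most tissues (chr5:115345642-115348981, minus strand), had 337.9, 493.6 and 596.1 CPM in Hcrt neurons, against 244.1, 320.2 and 525.6 CPM in Gad neurons. Hcrt neurons were higher in 16 of 16 plates, with a log2 fold change of 0.50 ± 0.10 (edgeR adjusted p = 4.13e-05). Cox4i1, the general isoform of subunit IV, which binds ATP (chr8:120668222-120674207, plus strand), had 2500, 3183 and 3952 CPM in Hcrt neurons and 2162, 2742 and 3295 CPM in Gad neurons. It was higher in 15 of 16 plates, but by a log2 fold change of only 0.20 ± 0.08 (edgeR adjusted p = 0.0343), and leaving out any 1 of plates 2, 8, 11, 14, 17 and 18 ended the call (edgeR adjusted p up to 0.0619). So did a fit without the plate block (edgeR adjusted p = 0.0522), thinning (0.0633) and a peptide limit of 0.2% (0.157). Emc8 overlaps Cox4i1 on the other strand, and the use of strand in counting is not given in the sources used here.

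**Figure D3:**
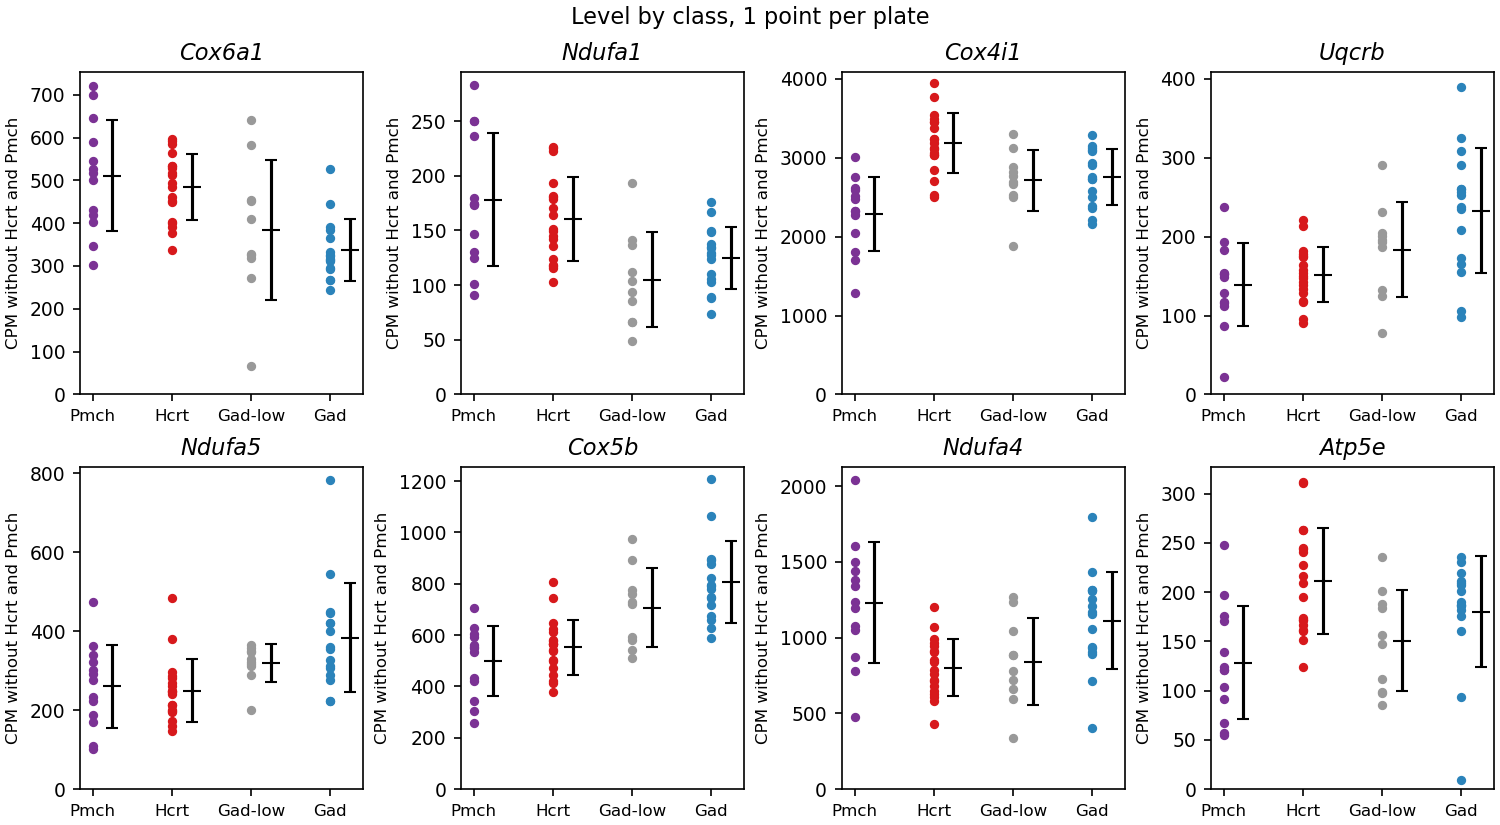
CPM of 8 respiratory chain genes in Pmch, Hcrt, Gad-low and Gad cells, with 1 point per plate and black bars for mean ± SD over plates. Hcrt neurons lie above Gad neurons on average for Cox6a1 (484.6 against 337.5 CPM), Ndufa1 and Cox4i1, and below them for Uqcrb, Ndufa5, Cox5b and Ndufa4. Pmch neurons are highest in Ndufa4 (1230 CPM) and lowest in Cox4i1 and Atp5e.

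Complex V had 8 of 14 tested genes lower and 0 higher by edgeR, and TMM left 4 lower. At an unadjusted p under 0.05, by DESeq2 and under TMM scaling alike, 1 was higher (Atp5e). All genes were 22.2% lower and 10.7% higher, and 14.1% and 16.9% with TMM. Atp5j2, subunit f of the membrane part, had 186.5, 255.9 and 350.9 CPM in Hcrt neurons and 211.1, 377.8 and 579.0 CPM in Gad neurons, and was lower in Hcrt neurons in 15 of 16 plates (log2 fold change -0.53 ± 0.10, edgeR adjusted p = 2.98e-05). Atp5g1, which encodes the c subunit of the rotor ring, was lower by -0.49 ± 0.10, whereas Atp5g3, which encodes the same mature protein, was at -0.16 ± 0.08 and did not pass. Atp5o, the stalk subunit OSCP, was at -0.47 ± 0.09, and a pseudogene copy near-identical to Atp5o held counts equal to 5.76% of its own. The catalytic β subunit gene Atp5b was lower by -0.20 ± 0.08 (edgeR adjusted p = 0.0437), a call that ended when any 1 of 11 plates was left out (1, 2, 3, 8, 9, 12, 13, 14, 15, 17 and 18; edgeR adjusted p up to 0.0837), and the α subunit gene Atp5a1 did not pass (-0.12 ± 0.11). Atp5sl, which carries the family name but is no ATP synthase subunit (the human protein is known for complex I assembly), had the largest change among the 77 tested members, -0.88 ± 0.19, with means of 39.7 ± 12.9 CPM in Hcrt neurons and 70.0 ± 24.1 CPM in Gad neurons.

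Pmch neurons and Hcrt neurons differed in fewer nuclear members and in both directions, with 5 of 77 higher in Pmch neurons and 10 lower. Among all genes tested 13.5% were higher and 13.3% lower, so both shares were at or under the background, and the median log2 fold change was 0.00 for the members and -0.05 for all genes. TMM scaling gave 4 higher and 11 lower (all genes 12.3% and 14.4%), without Ndufs6 and with Ndufb10 added. The largest rise among the 77 tested members was in Ndufa4, first described as a complex I subunit and now assigned to complex IV (chr6:11900292-11907497, minus strand). It had 476.1, 1235 and 2041 CPM in Pmch neurons and 430.4, 785.5 and 1201 CPM in Hcrt neurons. Pmch neurons were higher in 13 of 13 plates despite the overlap of the ranges, with a log2 fold change of 0.60 ± 0.09 (edgeR adjusted p = 3.02e-07). The other genes that were higher were Ndufs4, an accessory subunit of the matrix arm whose loss gives mice an encephalopathy, with 189.1 ± 40.3 CPM in Pmch neurons and 126.8 ± 18.5 CPM in Hcrt neurons (0.56 ± 0.14), Sdhd, a membrane anchor of complex II (0.50 ± 0.17), Ndufb11 (0.39 ± 0.13) and Ndufs6 (0.37 ± 0.13).

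Atp5e and Cox4i1 led the genes that were lower in Pmch neurons. Atp5e, the ε subunit of the ATP synthase stalk (chr2:174461072-174464105, minus strand), had 55.1, 120.6 and 247.4 CPM in Pmch neurons and 124.2, 209.0 and 312.0 CPM in Hcrt neurons, and was lower in 13 of 13 plates (log2 fold change -0.73 ± 0.15, edgeR adjusted p = 6.96e-05). Cox4i1 had 1292, 2327 and 3015 CPM in Pmch neurons and 2500, 3183 and 3952 CPM in Hcrt neurons, and was lower in 13 of 13 as well (-0.47 ± 0.08, edgeR adjusted p = 5.56e-06). The remaining genes called lower were Ndufb2, Ndufb9, Ndufa2, Ndufa12 and Ndufa6 of complex I, Sdha of complex II (-0.40 ± 0.12), and Cox6c and Cox7c of complex IV, and 0 of the 9 genes of complex III passed by edgeR, as by DESeq2 or at an unadjusted p under 0.05. Of the 15 calls, 9 held when each plate in turn was left out, and those that ended were of Ndufa12, Cox7c, Ndufa6, Ndufa2, Sdhd and Ndufs6. The calls of Ndufa4, Atp5e and Cox4i1 also held under each of the 15 other settings, and the other 12 did not, that of Ndufs4 ending after thinning (edgeR adjusted p = 0.0773).

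**Figure D4:**
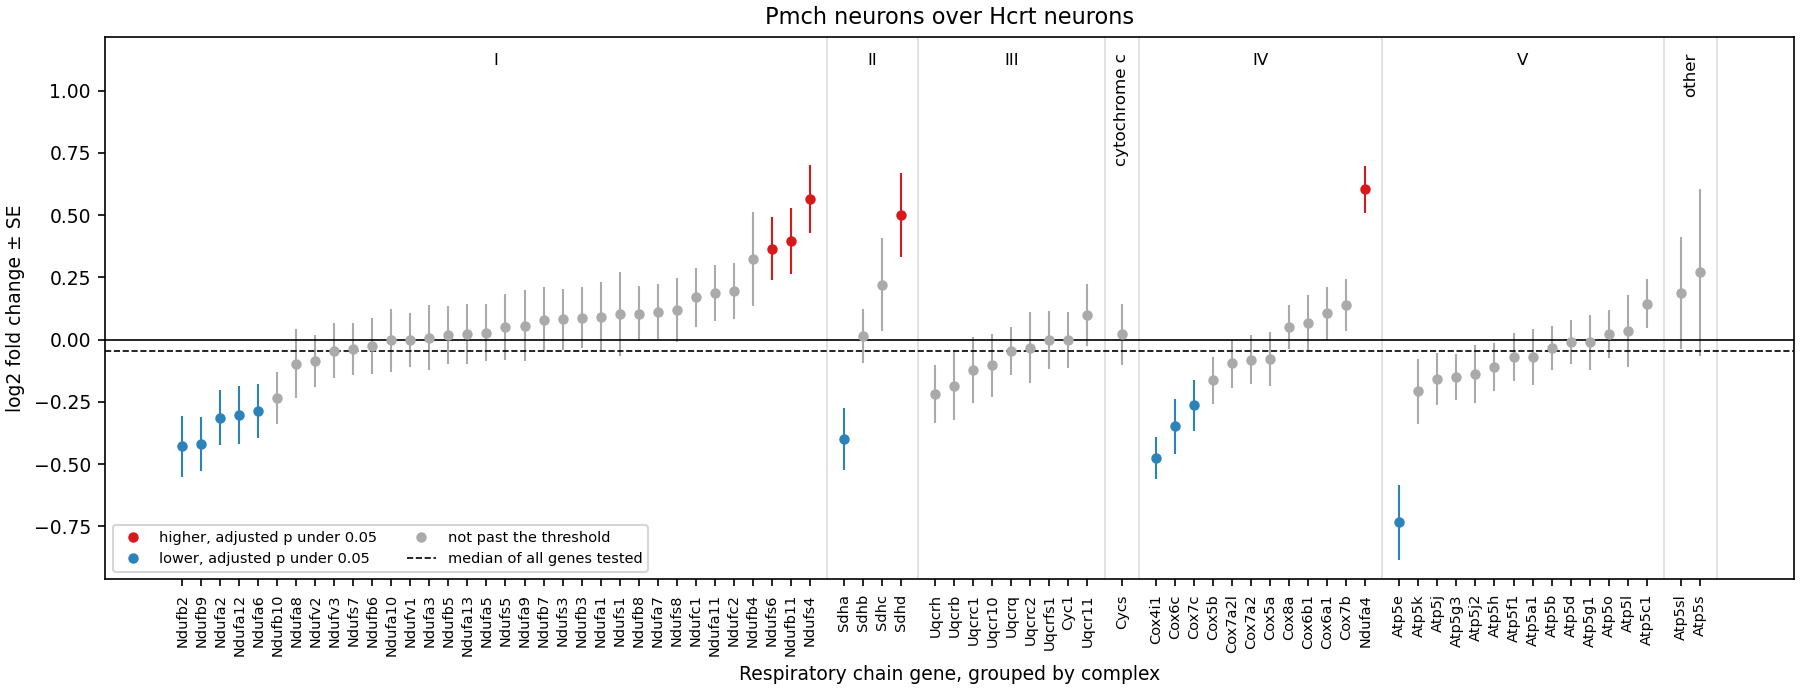
Log2 fold change ± SE of 76 of the 77 tested respiratory chain genes in Pmch neurons over Hcrt neurons, grouped by complex and ordered by size within it. Blue points are lower and red points higher at an adjusted p under 0.05, and the dashed line is the median of all genes tested (-0.05). The points scatter on both sides of 0, with Ndufa4 highest (0.60) and Atp5e lowest (-0.73).

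Of the 13 subunits encoded by mitochondrial DNA, 7 were abundant enough to be tested, and all 7 were lower in Pmch neurons than in Hcrt neurons, with a median log2 fold change of -0.47 (background 13.3% lower). The summed share of the 13 genes was 1.47% ± 0.20 in Pmch neurons (n = 13 plates) and 2.12% ± 0.21 in Hcrt neurons (n = 19), and was lower in Pmch neurons in 13 of 13 plates. Most of that share was mt-Cytb and mt-Nd1, with means of 12300 and 5868 CPM in Hcrt neurons, against 150.3 CPM for mt-Co1. mt-Cytb, the cytochrome b of complex III, had 4834, 7727 and 11430 CPM in Pmch neurons and 8305, 12760 and 15000 CPM in Hcrt neurons (log2 fold change -0.62 ± 0.08, edgeR adjusted p = 1.1e-08). mt-Co1, the catalytic subunit of complex IV, was lower by -0.69 ± 0.15, mt-Atp6 of complex V by -0.68 ± 0.11 and mt-Nd1 of complex I by -0.43 ± 0.08. The count was 6 or 7 when any 1 plate was left out, 7 under TMM scaling, 5 without the plate block and 5 after thinning to 10000 counts (median -0.55). Of the 6 that were too scarce for the test, mt-Nd3 and mt-Atp8 had the higher mean in Pmch neurons (2.88 against 2.74 CPM and 10.7 against 9.86 CPM). Between Hcrt and Gad neurons 3 of the 7 tested were lower in Hcrt neurons and 0 higher, and 2 were lower with TMM scaling. Among all genes 22.2% were lower, and 14.1% with TMM. The summed share was lower in Hcrt than in Gad neurons in 11 of 16 plates, by 0.15 ± 0.21 points. The summed share of the nuclear members, given above, differed between Pmch and Hcrt neurons by less than the spread over plates. Pmch wells held more counts and a smaller spike-in share than Hcrt wells, as given above, and the part of this in the result was not tested beyond the thinning.

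Hcrt neurons against Gad-low cells gave 7 members lower and 2 higher, beside 9.64% and 7.15% of all genes tested. The median log2 fold change was -0.09 for the members and -0.11 for all genes, and TMM scaling turned both round, to 0.12 and 0.10, with 0 members lower and 9 higher (all genes 6.19% and 12.7%). Ndufa1 was the higher member with the largest change, with 102.7, 151.8 and 226.2 CPM in Hcrt neurons and 48.8, 98.6 and 193.8 CPM in Gad-low cells. It was higher in 10 of 10 plates (0.81 ± 0.18, edgeR adjusted p = 0.000694), and Atp5e was higher in 10 of 10 too (0.56 ± 0.18, edgeR adjusted p = 0.0213, which without plate 19 was 0.0597). The 7 that were lower were Ndufs7, Cyc1, Ndufb9, Ndufv1, Sdhb, Atp5d and Cox8a, at log2 fold changes between -0.45 and -0.28. Ndufs7, an iron-sulfur core subunit of complex I, averaged 440.6 ± 42.7 CPM in Hcrt neurons and 609.5 ± 97.3 CPM in Gad-low cells, and was the only 1 of the 7 whose call held when each plate in turn was left out. The count of lower members was 2 without plate 2 or plate 14, 4 without plate 5, 8 or 13, and 13 without plate 19. When wells outside the neuron gate were left out it was 18. The higher oligodendrocyte markers and failed neuron gate of some Gad-low wells, given above, move with this comparison, and beyond that gate their part was not tested. None of the 9 calls held under each of the 15 other settings: that of Ndufa1 ended after thinning (0.66, edgeR adjusted p = 0.0679), and TMM scaling ended each of the 7 lower ones. Cox6a1 and Cox4i1 lay at 0.30 ± 0.13 and 0.23 ± 0.09 and did not pass (edgeR adjusted p = 0.109 and 0.0777), and whether this differs from the comparison with Gad neurons was not tested.

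Gad-low cells against Gad neurons gave 4 members lower and 0 higher by edgeR, with 21 and 0 at an unadjusted p under 0.05, and DESeq2 called 1 higher. Among all genes tested 3.45% were lower and 2.11% higher. The 4 were Uqcrb, Atp5k (subunit e of ATP synthase), Ndufa4 and Atp5g1. Ndufa4 had 340.2, 833.3 and 1267 CPM in Gad-low cells and 402.4, 1163 and 1799 CPM in Gad neurons, and was lower in 8 of 10 plates (-0.46 ± 0.11, edgeR adjusted p = 0.00514). That call ended without the plate block (-0.38, edgeR adjusted p = 0.164) and after thinning (-0.32, 0.202). The other 3 calls each ended when any 1 of 5 or 6 plates was left out. Without plate 2 there were 7 lower members, without plate 11 or 14 there were 2, and without plate 9 or 19 there was 1, as there was when wells outside the neuron gate were left out.

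The isoforms of other tissues were scarce in all 4 classes. Cox4i2, the lung isoform, had 1 count in all, in a Hcrt well, and Cox8b and Cox8c had at most 7 counts in any class. Cox7a1, the heart and muscle isoform of subunit VIIa, was the most abundant of these in Pmch neurons, with 5.60, 13.4 and 73.4 CPM (94 counts, 48.5% of wells), against 0.963, 2.93 and 7.07 CPM in Hcrt neurons (156 counts, 9.30% of wells). It fell under the filter on low counts. Without that filter its log2 fold change in Pmch over Hcrt neurons was 2.77 ± 0.47 (edgeR adjusted p = 1.65e-07), and that of Cox6a2, the heart and muscle isoform of subunit VIa, was 4.02 ± 0.89 (edgeR adjusted p = 0.000208) on 24 counts in Pmch wells and 4 in Hcrt wells. Cox6a2 was found in 13.2% of Pmch wells and 0.376% of Hcrt wells, and its median plate was at 0 CPM in each class. In Gad-low and Gad wells Cox7a1 was found in 14.1% and 8.56%, and Cox6a2 in 4.23% and 0.917%. The fit without the filter was not repeated with plates left out. The other members too scarce for the test were Cox6b2, Cox7b2, Ndufa4l2 and Atp5g2, and none of them passed without the filter.

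Other genes of energy metabolism were counted by list, to be read beside 22.2% of all genes lower and 10.7% higher (14.1% and 16.9% with TMM scaling). Of the TCA cycle and pyruvate dehydrogenase genes, which feed electrons to the chain, 8 of 19 tested were lower in Hcrt neurons than in Gad neurons, among them Idh3a (223.5 against 327.2 CPM) and Ogdh (109.8 against 165.3 CPM), and with TMM scaling 3 were lower. Values in CPM in parentheses are means over plates in Hcrt neurons against Gad neurons. Of 18 glycolysis genes 6 were lower and 2 higher, and 5 lower and 6 higher with TMM scaling. Aldoc (119.7 against 463.0 CPM) and the phosphofructokinase gene Pfkp (74.0 against 235.1 CPM) fell by 1.94 ± 0.15 and 1.62 ± 0.12 on the log2 scale, while Pkm and Aldoa were higher in 16 of 16 plates. Of 24 genes for mitochondrial carriers, pores and import 6 were lower and 1 higher, and 3 lower and 2 higher with TMM scaling, with Ckmt1, the mitochondrial creatine kinase, lower by -1.62 ± 0.15. Of 7 regulators of mitochondrial genes 1 was lower, the coactivator gene Ppargc1b (-2.01 ± 0.41). Of 39 assembly factors 3 were lower (Cox10, Ttc19 and Coa3) and 0 higher by edgeR, with 2 higher at an unadjusted p under 0.05, 4 higher by DESeq2, and 4 higher and 2 lower under TMM scaling. Of 15 antioxidant genes 3 were higher and 2 lower, and 7 higher and 1 lower with TMM scaling, with Prdx1 (1169 against 603.4 CPM, 0.95 ± 0.14) among the higher and Prdx5 (418.2 against 719.8 CPM, -0.78 ± 0.10) among the lower.

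Of 18 glycolysis genes tested in Pmch neurons against Hcrt neurons, 8 were higher and 0 lower by edgeR, with 9 and 1 at an unadjusted p under 0.05 and 9 and 0 by DESeq2, beside 13.5% of all genes called higher. With TMM scaling 6 were higher. Among all genes 13.3% were called lower, and with TMM scaling 12.3% were higher and 14.4% lower. Pfkp averaged 368.3 CPM in Pmch neurons and 74.0 CPM in Hcrt neurons and was higher in 13 of 13 plates (log2 fold change 2.25 ± 0.13, edgeR adjusted p = 3.17e-24). Ldha, a lactate dehydrogenase subunit, averaged 1851 CPM in Pmch neurons and 1070 CPM in Hcrt neurons (0.80 ± 0.22), and Gapdh 4254 and 3043 CPM (0.48 ± 0.09). Of 24 genes for carriers, pores and import 1 was higher, Ckmt1 (268.4 against 111.2 CPM), and 3 were lower. Of 7 regulators 1 was lower, a share of 14.3% that is near the 13.3% of all genes. It was Ppargc1a, the coactivator that drives mitochondrial biogenesis (13.5 against 36.6 CPM, -1.59 ± 0.36). Of 19 TCA cycle genes 1 was higher (Sucla2) and 1 lower (Suclg1).

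Single wells of a class spread wider than plates did. The share on respiratory chain genes ran from 1.71% to 4.37% over the 68 Pmch wells (median 3.14%), from 1.24% to 9.99% over the 1065 Hcrt wells (median 3.18%), from 2.09% to 5.64% over the 71 Gad-low wells (median 3.51%) and from 1.67% to 13.6% over the 327 Gad wells (median 3.81%). Across wells, the share followed the share of mitochondrially encoded genes only loosely, with Spearman's rho of 0.31 over 68 Pmch wells, 0.24 over 1065 Hcrt wells, 0.52 over 71 Gad-low wells and 0.14 over 327 Gad wells. Both shares come from the same library of a well and the same total. Against the depth of a well, rho was 0.41 in Pmch wells, 0.11 in Hcrt wells, 0.07 in Gad-low wells and 0.17 in Gad wells.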

How the data were processed

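The authors deposited raw counts for each gene in each well of 19 plates. A further deposited file lists, well by well, the label, the features detected and the ERCC spike-in share in percent. Tools named in the submitters' processing notes are STAR 2.7.5c with STARsolo 2.7.5c, bcl2fastq 2.20, cutadapt 2.1.0, R 3.4.3 and Seurat 2.3.4, and the build is GRCm38. The annotation release, strand use and any collapsing of molecular identifiers are not given in the sources used here, so values are called counts. Gene coordinates are from GENCODE M21, whereas those of the upstream sequences follow the RefSeq starts. The kept wells of each of the 19 plates together held between 1835641 and 5067927 mouse counts.

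Each plate's counts were added up by class, and the sums were tested, two-sided, with edgeR 4.0.16 (quasi-likelihood, robust, plate as block, library size the mouse counts without Hcrt and Pmch, no further scaling, filterByExpr), all 4 classes in 1 fit. Each SE was derived from the log2 fold change and its F statistic (size over root F) and so restates the test. The labels number the plates, and all classes of a plate come from the same plate, so plate pairs the classes. Cells were picked singly by hand, and doublets were not called. The same 96 well barcodes serve every plate of a set (4 or 5 plates), so a barcode alone does not name a cell. DESeq2 1.42.0, TMM scaling, other gates, filters and depths, and each plate left out were tried. The test was checked on simulated counts. With blastn 2.17.0, 22 members had a pseudogene copy of at least 95% identity over 100 bases (0.992% of the members' counts on 47 copies), and 29 members share exon bases with another gene. Of 77 tested members 38 had neither, and of these 17 were lower and 2 higher in Hcrt against Gad neurons.

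Named genes were the members past the threshold, up to 8 in each direction by size of change, the complex IV and c subunit isoforms, and the catalytic or core subunits; up to 4 genes were named of each other list. Some further called members are named where a complex is described. The members, lists and rules were chosen with earlier results of these data known. The values of 1 tested member are not reported here, though it is included in the counts and shares.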

Additional observations from a re-analysis of the deposited data

Results flagged for a closer look

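The 68 wells labelled qRNA, whose contents the labels do not state and which enter no comparison, held a median of 474 counts on respiratory chain genes (2.65% of their counts), above the median of 2 in the wells with spike-ins only or nothing, of which the highest held 3630. Of 20 values looked at in the 10 plates of Gad-low cells (7 shares and 13 genes), none had a plate that stood apart from the other plates by Dixon's test.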

How the results depend on the processing

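Counts are of respiratory chain genes called. For Hcrt against Gad neurons (3 higher, 37 lower), the higher count was 8 with TMM, 6 with DESeq2, 1 without the plate block and 1 with a peptide limit of 0.2%, and the lower count 13 with TMM, 21 without the filter and 23 at 0.2%. Plates left out gave 2 to 4 higher and 34 to 42 lower, and 32 of the 37 and 2 of the 3 calls held each time (ended: Atp5b, Uqcr11, Ndufs4, Ndufs6, Ndufa11 and Cox4i1). The share difference was between -0.603 and -0.543 points. For Hcrt neurons against Gad-low cells (2 higher, 7 lower), the higher count was 9 with TMM, 1 without the block, 0 at 0.2% and 1 thinned, and the lower count 0 with TMM, 16 with DESeq2, 2 without the filter, 12 without the block, 4 at 0.2%, 12 with a Gad limit of 10 counts, 18 with the neuron gate and 2 thinned. Plates left out gave 1 to 3 higher (1 without plate 19) and 2 to 13 lower. For Pmch against Hcrt neurons (5 higher, 10 lower), the higher count was 3 with 1 well per plate, 2 at 0.2% and 2 thinned, and the lower count 4 without the filter, 6 without the block, 4 with 5 wells per plate, 3 at 0.2% and 4 thinned. Plates left out gave 3 to 5 higher (3 without plate 18) and 6 to 10 lower (6 without plate 1, 3 or 6). For Gad-low cells against Gad neurons (0 higher, 4 lower), the higher count was 1 with DESeq2, and the lower count 1 without the filter, 1 without the block, 7 with 1 well and 2 with 5 wells per plate, 0 at 0.2%, 1 with a Gad limit of 0.02%, 1 with the neuron gate and 1 thinned. Plates left out gave 0 to 0 higher and 1 to 7 lower. Atp5a1 in Hcrt neurons against Gad-low cells was at -0.284 with 5 wells per plate, past the threshold, against 0.03. Leaving out genes with low counts sets how many genes share the adjustment, and a lower peptide limit, a Gad limit or thinning changes which wells or counts enter; otherwise the cause was not tested. The comparisons with Gad-low cells rest on 71 wells on 10 plates.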
